A study of Mus musculus with 4 samples.

Results

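Mitochondria import nearly all of their proteins, and 32 genes of the machinery that brings them in and folds them were followed here. The genes were taken by name: symbols that begin with Timm or Tomm and a number, together with Hspd1, Hspe1, Hspa9, Pmpca, Pmpcb, Samm50, Grpel1, Grpel2 and Chchd4. They were 32 of the 18193 genes with a probe set of 1 symbol. Dnajc19, Tomm5 and Tomm6 have only probe sets shared with another gene in the platform annotation and are not analysed here. The measurements came from 4 Affymetrix mouse arrays, with 1 array for each of 4 groups: granulocyte monocyte progenitors (GMP) of Trib1-/- mice, GMP of wild-type mice, cells labelled MDP of Trib1-/- mice and MDP of wild-type mice. The label MDP usually stands for a progenitor of macrophages (or monocytes) and dendritic cells. All mice were of the mixed background C57BL6J/129SV and all cells were sorted and unstimulated. The sources used here do not state the age of the mice, how many animals an array stands for, or which part of Trib1 was deleted. The Trib1 protein is a pseudokinase that links C/EBP proteins to COP1, a ubiquitin ligase.

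A precursor protein first meets the TOM complex of the outer membrane. Proteins with a cleavable presequence pass on through the TIM23 complex, pulled by a motor built on the mitochondrial Hsp70 Hspa9, and their presequence is cut off by the processing peptidase Pmpca and Pmpcb before the chaperonin Hspd1 and its lid Hspe1 help them fold. Carrier proteins instead travel with small TIM chaperones to the TIM22 complex, Chchd4 traps small cysteine-rich proteins in the intermembrane space by oxidising them, and Samm50 inserts barrel-shaped proteins into the outer membrane.

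The values are RMA values, taken as log2, and every difference below is a log2 difference between 2 arrays. With 1 array per group there is no spread between replicates, so no test was made, and the number of arrays limits the precision. A gene is said to be apart where the difference is at least 1 in size, that is 2-fold. Genes entered where their mean over the 4 arrays reached the floor, the median of the whole table (3.29), which 10503 genes did. In these 10503 genes 4270 had several probe sets above the floor, and the SD between probe sets of 1 gene was 0.356 for the GMP genotypes, 0.360 for the MDP genotypes, 0.400 for MDP against GMP in the knockout and 0.528 for MDP against GMP in wild type. That SD leaves out animals, sorts and arrays. Of the 32 genes, 28 reached the floor and 27 of them did so on every array. The exception, Tomm40l, was below it in wild-type MDP (3.07). The 4 that did not reach it were Timm13 (mean 2.97), Tomm40 (2.27), Tomm20l (1.66) and Timm8a2 (1.40). The closest above it were Timm50 (3.60), Tomm40l (3.66) and Timm10 (3.67).

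Some facts of the arrays touch all results. Over all probe sets, arrays of the same cell type were closest, with correlations of 0.977 between the GMP arrays and 0.976 between the MDP arrays. Wild-type GMP lay farther from MDP than knockout GMP did. Knockout GMP correlated at 0.967 with knockout MDP and at 0.964 with wild-type MDP, and wild-type GMP at 0.950 and 0.948. The 2 probe sets of Trib1 were higher by 0.34 and 0.15 in knockout GMP and lower by 0.41 and 0.43 in knockout MDP than in the matching wild type, so its signal is no check of the labels, and knockout here means an array labelled Trib1-/-. All 8 measured GMP markers exceeded the floor in GMP of both genotypes, and 6 of the 8 also did in MDP of both. Mpo read 9.93 in knockout MDP and 10.04 in wild-type MDP, against 11.99 and 11.90 in GMP. Gfi1 and Kit were below the floor in MDP. On each array 4 of the 5 MDP markers reached the floor, all but Flt3 in GMP and all but Kit in MDP. Csf1r and Irf8 read 7.77 or more on both MDP arrays and 6.01 or less on both GMP arrays. Flt3 read 5.50 in knockout MDP and 4.85 in wild-type MDP. Cx3cr1 differed little, at 5.06 in knockout GMP, 5.34 in wild-type GMP, 5.36 in knockout MDP and 5.67 in wild-type MDP. Kit, by which such progenitors are usually sorted, was below the floor on both MDP arrays (2.69 in knockout and 2.43 in wild type). None of the 5 measured erythroid genes reached the floor on any array. Of the 4 measured lymphoid markers, 3 reached it on both GMP arrays and in wild-type MDP, and all 4 in knockout MDP. The highest of these was Ebf1, which read from 6.43 in wild-type GMP to 7.26 in wild-type MDP. In a sorted population, fewer cells of a type and less RNA per cell cannot be told apart, and RMA hides any change that all genes share.

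The promoters of a few members are shown because Hspd1 and Hspe1, which form 1 chaperonin, start from opposite strands of the same stretch of DNA, and because Chchd4, Timm10, Grpel1 and Tomm70a had some of the widest differences in the comparisons that follow. Sequences are RefSeq's, build GRCm38.p6, 250 bases before to 50 after the gene's start, 5′ to 3′ on the gene's strand, and capitals mark motifs. The motifs searched, on both strands, were an ETS-type site, CCGGAAG, an NRF1-type site, GCGCA and GCGC with 1 free base between them, a heat shock element, GAA, TTC and GAA with 2 free bases between neighbours, and an E-box, CACGTG.
Hspe1 (chr1:55087898-55088197, plus strand): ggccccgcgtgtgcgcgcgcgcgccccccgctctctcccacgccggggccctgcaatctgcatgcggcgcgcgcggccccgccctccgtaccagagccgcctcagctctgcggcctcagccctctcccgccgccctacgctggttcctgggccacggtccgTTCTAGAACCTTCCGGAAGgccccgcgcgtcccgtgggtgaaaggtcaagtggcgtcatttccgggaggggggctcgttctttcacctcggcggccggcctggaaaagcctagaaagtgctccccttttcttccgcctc
Chchd4 (chr6:91473374-91473673, minus strand): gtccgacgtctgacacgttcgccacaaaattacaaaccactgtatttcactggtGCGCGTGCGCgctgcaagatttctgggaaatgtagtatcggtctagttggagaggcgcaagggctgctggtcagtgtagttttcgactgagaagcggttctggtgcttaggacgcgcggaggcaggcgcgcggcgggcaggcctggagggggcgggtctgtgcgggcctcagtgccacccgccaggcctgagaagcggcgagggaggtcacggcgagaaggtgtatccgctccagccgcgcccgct
Timm10 (chr2:84826771-84827070, plus strand): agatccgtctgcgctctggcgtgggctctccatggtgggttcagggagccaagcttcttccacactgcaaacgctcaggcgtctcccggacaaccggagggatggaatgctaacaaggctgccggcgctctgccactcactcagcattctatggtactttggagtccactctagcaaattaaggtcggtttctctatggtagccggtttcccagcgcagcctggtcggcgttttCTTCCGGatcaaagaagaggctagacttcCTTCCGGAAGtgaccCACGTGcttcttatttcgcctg
Grpel1 (chr5:36464935-36465234, plus strand): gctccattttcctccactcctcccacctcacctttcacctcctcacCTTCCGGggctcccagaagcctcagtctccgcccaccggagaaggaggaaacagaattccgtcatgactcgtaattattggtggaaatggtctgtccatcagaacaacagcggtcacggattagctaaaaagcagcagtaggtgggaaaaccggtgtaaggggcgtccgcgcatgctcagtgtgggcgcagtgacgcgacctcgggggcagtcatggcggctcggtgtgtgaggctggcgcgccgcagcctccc
Tomm70a (chr16:57121464-57121763, plus strand): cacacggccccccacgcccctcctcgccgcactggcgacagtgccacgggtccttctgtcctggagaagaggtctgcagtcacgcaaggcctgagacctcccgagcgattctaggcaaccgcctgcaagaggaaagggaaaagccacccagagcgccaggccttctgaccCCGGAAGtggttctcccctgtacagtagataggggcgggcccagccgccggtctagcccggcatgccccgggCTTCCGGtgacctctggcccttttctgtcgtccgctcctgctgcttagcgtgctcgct

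One of the 2 promoter windows listed for Hspd1, on the minus strand, shares 285 of its 300 bases with the Hspe1 window, and so holds the same run of capitals. That run holds 2 heat shock elements and 2 ETS-type sites, which overlap each other. In Timm10 the capitals are 3 ETS-type sites, 2 of them overlapping, and 1 E-box. Chchd4 has an NRF1-type site, Grpel1 has 1 ETS-type site and Tomm70a has 2. Promoter windows were found for 27 of the 32 genes, 30 windows in all. The ETS-type site was in 50% of these windows, against 8.86% of all 32851 mouse windows. It was present in 14 of the 27 genes, among them Pmpca, Pmpcb, Timm23, Timm29, Tomm22 and Tomm34. The heat shock element was in 10% of the members' windows (3 of 30) and 0.603% of all, in Hspd1, Hspe1 and Timm9. Hspd1 and Hspe1 hold the same elements in shared DNA, so this share counts 1 stretch of DNA 2 times. The share of the ETS-type site does so as well, and it also counts 2 overlapping windows of Tomm34. The NRF1-type site was in 13.3% and 4.60%, and the E-box in 20% and 7.15%. These matches describe letters in a window and not binding.

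The first comparison asked what differed between GMP labelled Trib1-/- and wild-type GMP. Most of the import machinery read lower. Of the 28 genes above the floor, 24 were below 0 and 4 above, where 55.8% of all genes were below 0, and the median was -0.37 against -0.06 for all genes. At least 2-fold lower were 2 of 28, where 2.98% of all genes were, and none was at least 2-fold higher (0.362% of all genes). At 1.5-fold, 8 of 28 were lower, against 13.1% of all genes. Wild-type GMP was the highest of the 4 arrays for 23 of the 28 genes, and for 38.3% of all genes.

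**Figure D1:**
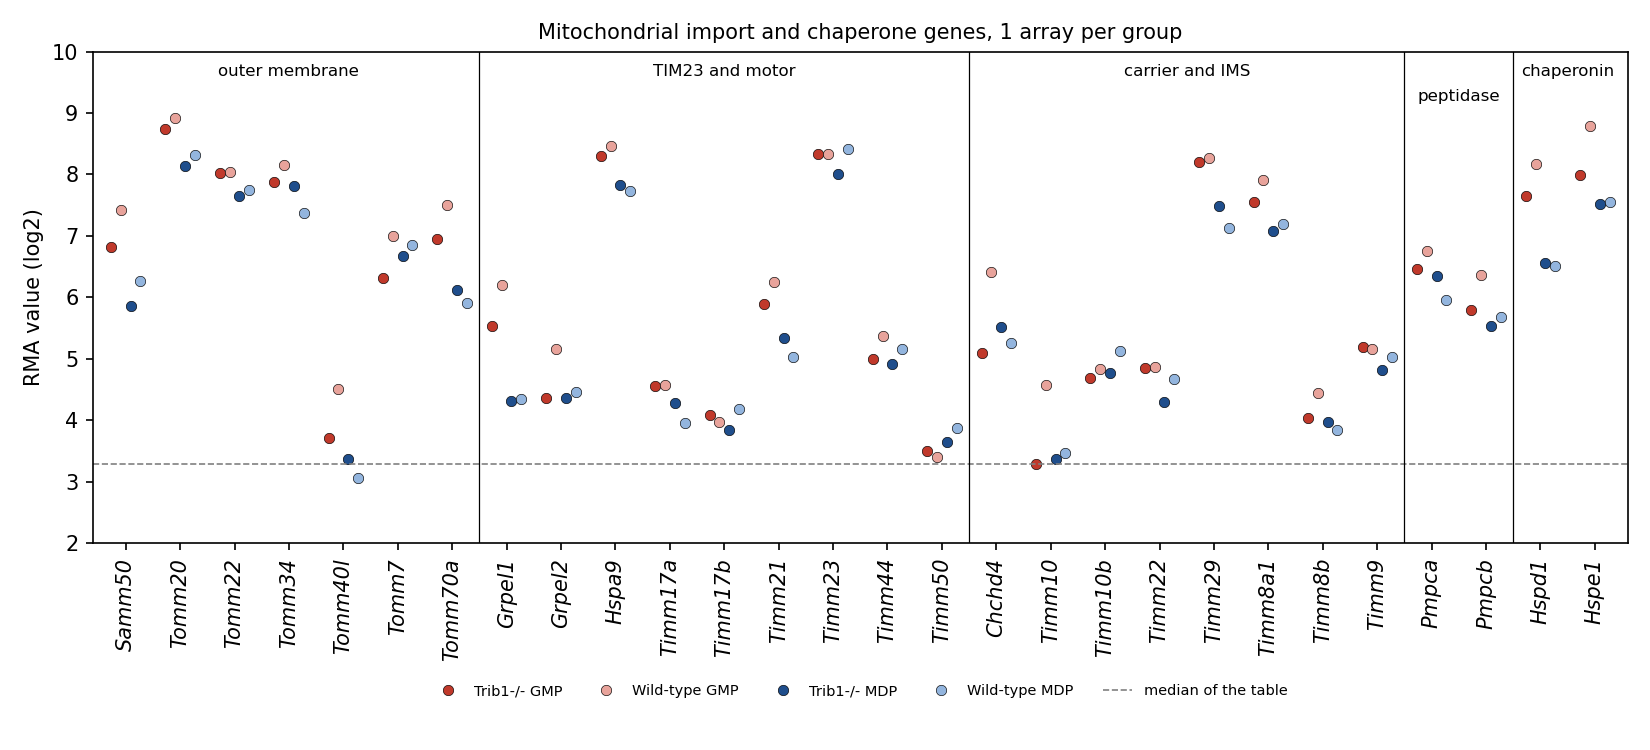
RMA values (log2) of the 28 genes above the floor on each of the 4 arrays, grouped by role in import (IMS, intermembrane space), with 1 point per array. Wild-type GMP is the highest point for 23 genes, Chchd4, Timm10 and Hspe1 among them.

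The intermembrane space held both genes at least 2-fold lower. Chchd4, the oxidoreductase of the intermembrane space, read 5.10 in knockout GMP, against 6.42 in wild-type GMP, and 5.52 in knockout MDP, against 5.26 in wild-type MDP. Wild-type GMP alone was high, and the GMP difference of -1.32 is 2.50-fold. Timm10, a small TIM chaperone that escorts carrier proteins, read 3.30 in knockout GMP, against 4.57 in wild-type GMP, and 3.37 in knockout MDP, against 3.46 in wild-type MDP. Again 1 array was high and the other 3 were at the floor, so the difference of -1.28 (2.42-fold) depends on how well weak signals are measured.

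Timm13, which works with Timm8 proteins in the same space, read 2.34 in knockout GMP, against 4.22 in wild-type GMP, and 2.92 in knockout MDP, against 2.38 in wild-type MDP. Its mean lies below the floor and it is not among the 28. Its GMP difference was -1.88, or -0.94 once low values were set to the floor. Of the other small chaperones, Timm8b differed by -0.41, Timm8a1 by -0.37 and Timm10b by -0.15. The other probe sets of Timm10b, all below the floor by their mean, gave -1.45, -1.43 and -0.12. Timm9, the partner of Timm10, read 5.20 in knockout GMP, against 5.16 in wild-type GMP, and 4.82 in knockout MDP, against 5.04 in wild-type MDP. Its GMP values were level, with a difference of 0.04, while a weaker probe set just below the floor differed by -1.05. Timm22, the pore of the carrier pathway, read 4.86 on both GMP arrays, 4.31 in knockout MDP and 4.67 in wild-type MDP. Its partner subunit Timm29 read 8.21 in knockout GMP, against 8.27 in wild-type GMP, and 7.48 in knockout MDP, against 7.13 in wild-type MDP. Both carrier pathway subunits were level between the GMP genotypes.

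In the outer membrane all 7 genes above the floor were below 0, with a median of -0.55 and none 2-fold apart. Tomm40l, a relative of the TOM channel, read 3.72 in knockout GMP, against 4.50 in wild-type GMP, and 3.37 in knockout MDP, against 3.07 in wild-type MDP. Wild-type GMP was its only array well above the floor, with a genotype difference of -0.79 in GMP. Tomm7, a small subunit that tunes TOM stability, differed by -0.69. Samm50 read 6.82 in knockout GMP, against 7.42 in wild-type GMP, and 5.87 in knockout MDP, against 6.26 in wild-type MDP. Both knockout arrays were lower, by 0.60 in GMP, where its second probe set above the floor gave -0.79. Tomm70a, the receptor for carrier precursors, read 6.95 in knockout GMP, against 7.51 in wild-type GMP, and 6.12 in knockout MDP, against 5.91 in wild-type MDP. All 4 of its probe sets above the floor were lower in knockout GMP, by 0.35 to 0.65. The presequence receptor Tomm20 differed by -0.18, the central receptor Tomm22 by -0.02 and Tomm34, a cytosolic partner of Hsp70 and Hsp90, by -0.27. The Tomm22 value comes from a probe set with a suffix for cross-hybridisation, and its other one above the floor gave -0.43. The other 5 of Tomm20 gave -0.46 to -0.03. The single probe set of the channel gene Tomm40 was below the floor on every array, at 2.67 in knockout GMP, against 2.65 in wild-type GMP, and 1.497 in knockout MDP, against 2.24 in wild-type MDP.

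In the TIM23 pathway 6 of 9 genes were below 0 and 3 above, and the median was -0.16. That share, 66.7%, is not far from the 55.8% of all genes. The exchange factors that recharge mitochondrial Hsp70 were the lowest. Grpel2 read 4.37 in knockout GMP, against 5.16 in wild-type GMP, and 4.37 in knockout MDP, against 4.46 in wild-type MDP. It differed by -0.79 in GMP and Grpel1 by -0.66, but the second probe set of Grpel2 differed by 0.36. The motor protein Hspa9 differed by -0.16, with -0.30 and 0.32 for its other probe sets, the tether Timm44 by -0.39 and Timm21 by -0.37. The channel subunits were level between the GMP genotypes. Timm23 read 8.34 on both GMP arrays. Timm17a read 4.56 in knockout GMP, against 4.58 in wild-type GMP, and 4.29 in knockout MDP, against 3.96 in wild-type MDP. Timm17b read 4.09 in knockout GMP, against 3.97 in wild-type GMP, and 3.84 in knockout MDP, against 4.19 in wild-type MDP. Its GMP difference, 0.12, was the highest of the 28, while its other probe set above the floor gave -0.38. The receptor subunit Timm50 read 3.50 in knockout GMP, against 3.40 in wild-type GMP, and 3.65 in knockout MDP, against 3.88 in wild-type MDP, while its other probe set above the floor differed by -0.85 in GMP.

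Matrix maturation and folding genes were below 0 in knockout GMP. Hspe1 read 7.99 in knockout GMP, against 8.79 in wild-type GMP, and 7.52 in knockout MDP, against 7.56 in wild-type MDP. Its difference in GMP was -0.80, and its other probe set gave -0.57. Hspd1, its partner from the shared promoter shown above, read 7.66 in knockout GMP, against 8.17 in wild-type GMP, a difference of -0.51. The peptidase subunits Pmpcb and Pmpca differed by -0.57 and -0.29, and their other probe sets by -0.42 and -0.73.

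Over the 52 probe sets of the members that were themselves above the floor, 45 were below 0 in knockout GMP and 7 above. Of the 15 genes with several such probe sets, 10 had all of them in 1 direction, and Grpel2, Hspa9, Timm17b, Timm29 and Timm50 did not. For these probe set counts the share over all genes was not computed, so they cannot be set against a background. Other values moved with this contrast. The log2 levels of the 8 measured GMP markers summed to 66.2 in knockout GMP, against 69.9 in wild-type GMP, with Mpo alone higher in the knockout. The 6 basophil and mast cell markers were all lower in knockout GMP, 5 of 6 being above the floor there and 6 of 6 in wild-type GMP, with summed log2 levels of 23.4 and 33.7. The hybridisation controls BioB and BioC averaged 10.2 and 11.1 on the knockout GMP array, against 9.82 and 10.8 on the wild-type GMP array. The excess of the 3′ over the 5′ probe set, a sign of RNA quality, was 1.20 against 1.06 for Gapdh and 1.91 against 2.01 for Actb. Their part in the result was not tested.

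The second comparison asked the same in MDP, with arrays that the first did not use. The import genes were close together here. Of the 28 genes, 17 were below 0 and 11 above, where 47.8% of all genes were below 0. The median was -0.09, against 0.02 for all genes. None was at least 2-fold lower (1.11% of all genes) or at least 2-fold higher (0.933% of all genes), and none was 1.5-fold lower (6.40% of all genes). Macrophage markers moved with this contrast. All 8 were lower in knockout MDP, 5 of 8 being above the floor there and 6 of 8 in wild-type MDP, with summed log2 levels of 23.4 and 38.9. Vcam1, an adhesion molecule, read 3.90 in knockout MDP, against 7.11 in wild-type MDP, and the mannose receptor gene Mrc1 read 4.24 against 6.46. C1qa and C1qc were below the floor on both arrays, and C1qb on the knockout MDP array. BioB averaged 10.4 on the knockout MDP array, against 10.5 on the wild-type MDP array, and the excess of the 3′ over the 5′ probe set was 1.66 against 1.44 for Gapdh and 1.67 against 2.01 for Actb. Their part in the values was not tested.

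The lowest was Timm23, the channel of the presequence pathway, which read 8.01 in knockout MDP and 8.42 in wild-type MDP, a difference of -0.41. It was followed by Samm50 (-0.39, though its other probe set differed by 0.16), Timm22 (-0.37) and Timm10b. Timm10b, a relative of Timm9 and Timm10, read 4.68 in knockout GMP, against 4.84 in wild-type GMP, and 4.77 in knockout MDP, against 5.13 in wild-type MDP. Its MDP difference was -0.36, with -0.58 to 0.22 for its other probe sets, all below the floor by their mean. The highest was Tomm34, at 7.81 in knockout MDP, against 7.38 in wild-type MDP, while knockout GMP read 7.88, against 8.15 in wild-type GMP. It was higher by 0.43 in knockout MDP. Pmpca read 6.34 in knockout MDP, against 5.95 in wild-type MDP, while knockout GMP read 6.46, against 6.76 in wild-type GMP. Its MDP difference was 0.39, with -0.38 for its other probe set, followed by Timm29 (0.35) and Timm17a (0.33). These values are of the size of the SD between probe sets. Of the 15 genes with several probe sets, 7 had all in 1 direction, a count for which no share over all genes was computed. A second probe set of Timm8a1 was the only one of the 52 at least 2-fold lower (-1.27), with a knockout MDP value of 2.58, below the floor.

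**Figure D2:**
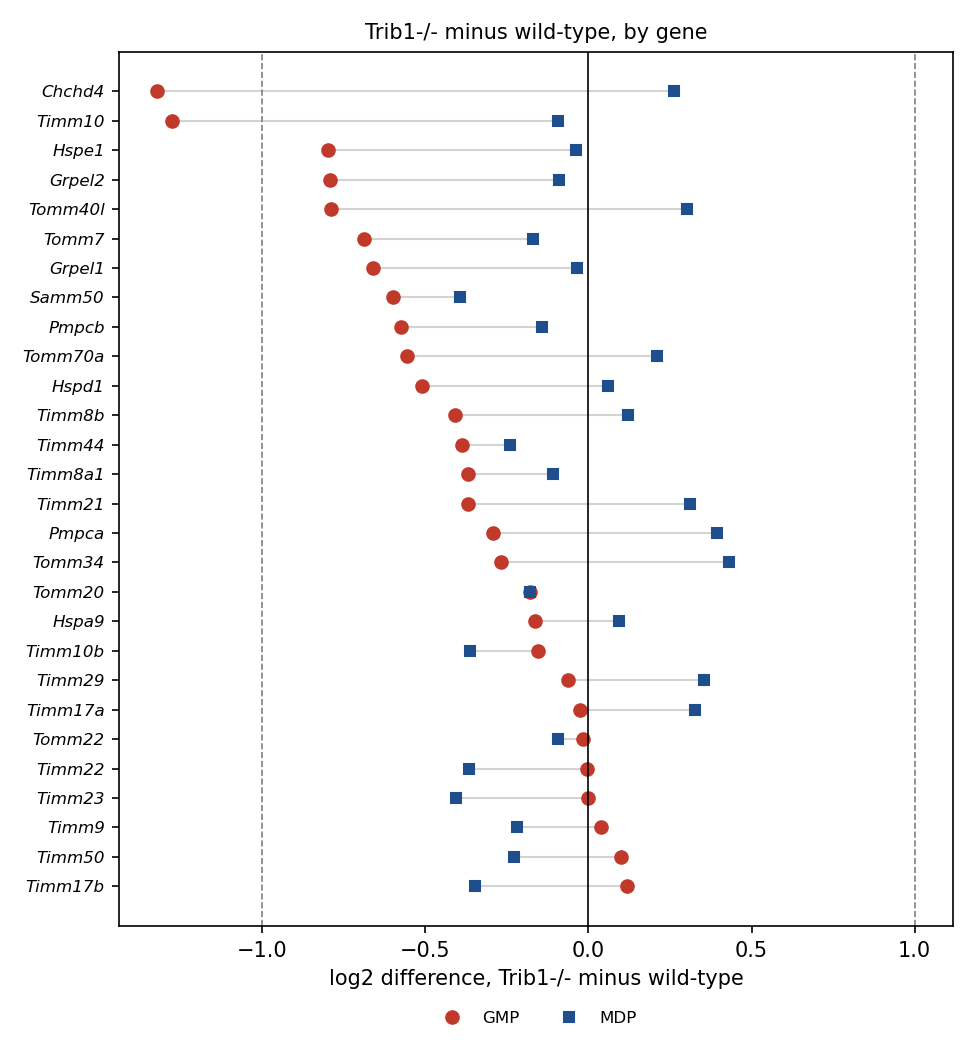
Log2 difference between Trib1-/- and wild type in GMP (red circles) and MDP (blue squares) for the 28 genes above the floor, with 1 pair of arrays behind each point and dashed lines at 2-fold. In GMP 24 genes lie left of 0 and 2 pass the line, and in MDP 17 lie left of 0 and none passes it.

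Side by side, 13 genes were below 0 in both cell types (25.4% of all genes) and 11 below 0 in GMP and above 0 in MDP (30.3% of all genes). The reverse held for 4, and 0 were above 0 in both. For the last 2 counts the share of all genes was not computed, so they cannot be set against a background. Samm50 (-0.60 in GMP and -0.39 in MDP), Pmpcb (-0.57 and -0.14) and Timm44 (-0.39 and -0.24) were among the 13, though second probe sets of Samm50 and Timm44 were above 0 in MDP (0.16 and 0.24). Chchd4 (-1.32 and 0.26), Tomm40l (-0.79 and 0.30), Tomm70a (-0.55 and 0.21) and Timm21 (-0.37 and 0.31) were among the 11. The MDP value of Tomm40l was 0.08 once low values were set to the floor. In 0 of the 28 genes did opposite differences each pass the SD between probe sets. The difference between the 2 contrasts was not tested.

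The third comparison set MDP against GMP in the knockout, which leaves out the wild-type GMP array. Of the 28 genes 22 were below 0 (51.6% of all genes), and the median was -0.34, against -0.02 for all genes. At least 2-fold lower in MDP were 2 of 28, against 4.04% of all genes, and none was at least 2-fold higher (2.59% of all genes). The fourth comparison made the same contrast in wild type and shares its GMP array with the comparison of the GMP genotypes. There 24 of 28 were below 0 (53.7% of all genes), the median was -0.71 against -0.06, 10 were at least 2-fold lower (12.6% of all genes) and none higher (3.74% of all genes). At 1.5-fold, 6 were lower in the knockout (12.5% of all genes) and 19 in wild type (25.6% of all genes). Below 0 in both genotypes were 20 of 28, and 36.6% of all genes.

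Some markers of other cells and some array controls differed in these contrasts too. The 6 basophil and mast cell markers summed to 14.3 in knockout MDP, against 23.4 in knockout GMP, and to 14.9 in wild-type MDP, against 33.7 in wild-type GMP. Of the 6, only Mcpt8 reached the floor in MDP. The 8 macrophage markers summed to 23.4 in knockout MDP, against 22.3 in knockout GMP, and to 38.9 in wild-type MDP, against 23.7 in wild-type GMP. In the knockout they went in both directions. Cd163 (3.50 against 1.66) and Mrc1 (4.24 against 3.51) were higher in MDP. Vcam1 (3.90 against 4.77), Slc40a1 (3.69 against 4.26) and Spic (3.41 against 3.79) were lower. C1qa, C1qb and C1qc were below the floor on both knockout arrays. At or above the floor were 5 of 8 in knockout MDP, against 4 of 8 in knockout GMP, and 6 of 8 in wild-type MDP, against 3 of 8 in wild-type GMP. BioB averaged 10.4 on the knockout MDP array, against 10.2 on the knockout GMP array, and 10.5 on the wild-type MDP array, against 9.82 on the wild-type GMP array. The Gapdh excess of 3′ over 5′ was 1.66 against 1.20 in the knockout and 1.44 against 1.06 in wild type. For Actb it went the other way in the knockout, at 1.67 against 1.91, and was 2.01 on both wild-type arrays. Their part in the differences was not tested.

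Grpel1, the exchange factor of Hspa9, was the lowest in both genotypes. It read 4.31 in knockout MDP, against 5.54 in knockout GMP, and 4.35 in wild-type MDP, against 6.20 in wild-type GMP. The 2 MDP arrays lay below both GMP arrays, by 2.35-fold in the knockout and 3.61-fold in wild type. Hspd1 was the other gene at least 2-fold lower in both. It read 6.57 in knockout MDP, against 7.66 in knockout GMP, and 6.51 in wild-type MDP, against 8.17 in wild-type GMP, that is 2.13-fold and 3.16-fold lower. At least 2-fold lower in both genotypes were thus 2 of 28 genes, and 2.94% of all genes.

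Tomm70a differed between MDP and GMP by -0.84 in the knockout and -1.60 in wild type, where its 4 probe sets gave -0.99 to -1.73. Tomm40l differed by -0.35 in the knockout and -1.44 in wild type, though its wild-type MDP value was below the floor (-1.22 once set to the floor). Timm21, which links TIM23 to TOM, differed by -0.55 in the knockout and -1.23 in wild type, and Hspe1 by -0.47 and -1.23. The other probe set of Hspe1 above the floor gave 0.003 in the knockout and -0.79 in wild type. Samm50 differed by -0.96 in the knockout and -1.16 in wild type, where its second probe set above the floor gave -0.44 and -1.38. Timm29 differed by -0.72 in the knockout and -1.14 in wild type, where its second gave -0.44 and -0.50. By their brightest probe sets these genes read lower in MDP whichever genotype was taken.

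Chchd4 and Timm10 did not follow that pattern. Chchd4 differed by 0.43 in the knockout and -1.16 in wild type, and Timm10 by 0.07 and -1.11. Their MDP values were close to those of knockout GMP, and wild-type GMP alone stood higher. Tomm7 also turned, with 0.36 in the knockout and -0.16 in wild type, and its other probe sets gave -0.17 to 0.24 in the knockout and -0.35 to 0.02 in wild type. Timm50 (0.15 in the knockout and 0.48 in wild type) and Timm10b (0.08 and 0.29) were above 0 in both, but the other probe set of Timm50 above the floor gave -0.57 and -1.36. The other probe sets of Timm10b, all below the floor by their mean, gave -0.38 to 0.20 in the knockout and -0.96 to -0.72 in wild type. Tomm20 differed by -0.61 in both, with -0.54 to 0.15 in the knockout and -1.03 to -0.10 in wild type for its other 5 probe sets, and Timm23 by -0.32 in the knockout and 0.08 in wild type.

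**Figure D3:**
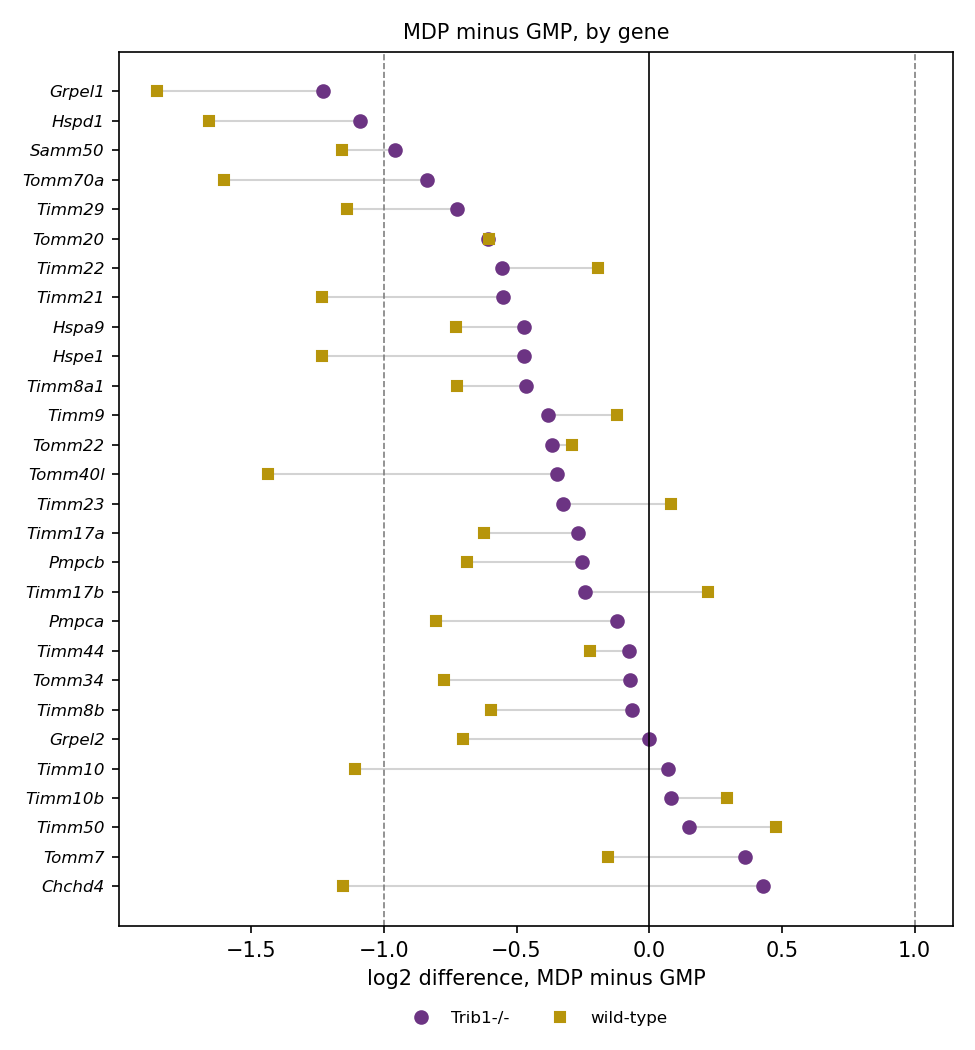
Log2 difference between MDP and GMP in Trib1-/- cells (purple circles) and wild-type cells (yellow squares) for the 28 genes above the floor, with 1 pair of arrays behind each point and dashed lines at 2-fold. Grpel1 and Hspd1 pass the line in both genotypes, and Chchd4 and Timm10 pass it only in the wild-type pair of arrays.

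By role, 6 of 7 outer membrane genes were lower in MDP in the knockout (median -0.37) and all 7 in wild type (median -0.77). In the carrier and intermembrane space group 5 of 8 were lower in the knockout (median -0.22) and 7 of 8 in wild type (median -0.66). In the TIM23 group these were 7 of 9 (median -0.27) and 6 of 9 (median -0.62). Of all genes 51.6% were below 0 in the knockout and 53.7% in wild type, and the shares of 5 of 8 (62.5%) and 6 of 9 (66.7%) are not far from these. Both peptidase and both chaperonin genes were lower in MDP of both genotypes. Of the 52 probe sets, 42 were below 0 in the knockout and 45 in wild type, again with no share over all probe sets computed.

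Other genes that act beside the import machinery were described from a list of 45, of which 39 were measured and 35 reached the floor. In knockout against wild-type GMP 25 of 35 were below 0 (55.8% of all genes; median -0.42), and only Romo1, a small inner membrane protein, was at least 2-fold lower (-1.07; 2.98% of all genes were). The matrix protease genes Clpp and Clpx differed by -0.80 and -0.95, the prohibitin gene Phb2 by -0.74 and the Hsp40 gene Dnaja3 by -0.52. Above 0 were 10 of 35, with the coactivator gene Ppargc1a the highest (0.75), and the cytosolic chaperone gene Hspa8 differed by 0.16. In knockout against wild-type MDP the median was -0.01 with 18 of 35 below 0, a share of 51.4% against 47.8% of all genes. Chchd3, which shapes the inner membrane folds, was at least 2-fold lower (-1.15; 1.11% of all genes were). Above 0 were 15 of 35, and 0 were at least 2-fold higher (0.933% of all genes). The highest was Chchd6 (0.91), and Romo1 differed by 0.82, both with a wild-type MDP value below the floor (2.87 and 3.16). In MDP against GMP 6 of 35 were at least 2-fold lower in the knockout (4.04% of all genes) and 14 in wild type (12.6% of all genes). Myc, which encodes a growth regulator, differed by -1.49 in the knockout and -2.10 in wild type. In the same order the intermembrane space protease gene Htra2 differed by -1.497 and -1.95, and Atf4, a stress response factor, by -1.01 and -1.08. Of the factors that can bind ETS-type and NRF1-type sites, Gabpa differed by -0.58 and -0.63 and Nrf1 by -0.08 and 0.58. Ppargc1a, a coactivator of mitochondrial genes, differed by 0.53 and 0.99.

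Other families of housekeeping genes had medians below 0 in the same contrasts. In knockout against wild-type GMP the median was -0.37 for the 28 import and chaperone genes, against -0.62 for 70 mitochondrial ribosomal protein genes, -0.74 for 74 respiratory chain and ATP synthase genes and -0.54 for 38 proteasome genes. At least 2-fold lower were 7.14% of the import genes, against 15.7%, 25.7% and 7.89% of these families. In MDP the genotype median was -0.09 for the import genes, against -0.10, -0.15 and -0.02. For MDP against GMP in the knockout it was -0.34, against -0.19, -0.35 and -0.35, and in wild type -0.71, against -0.81, -1.004 and -0.90. No test of these differences between families was made.

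**Figure D4:**
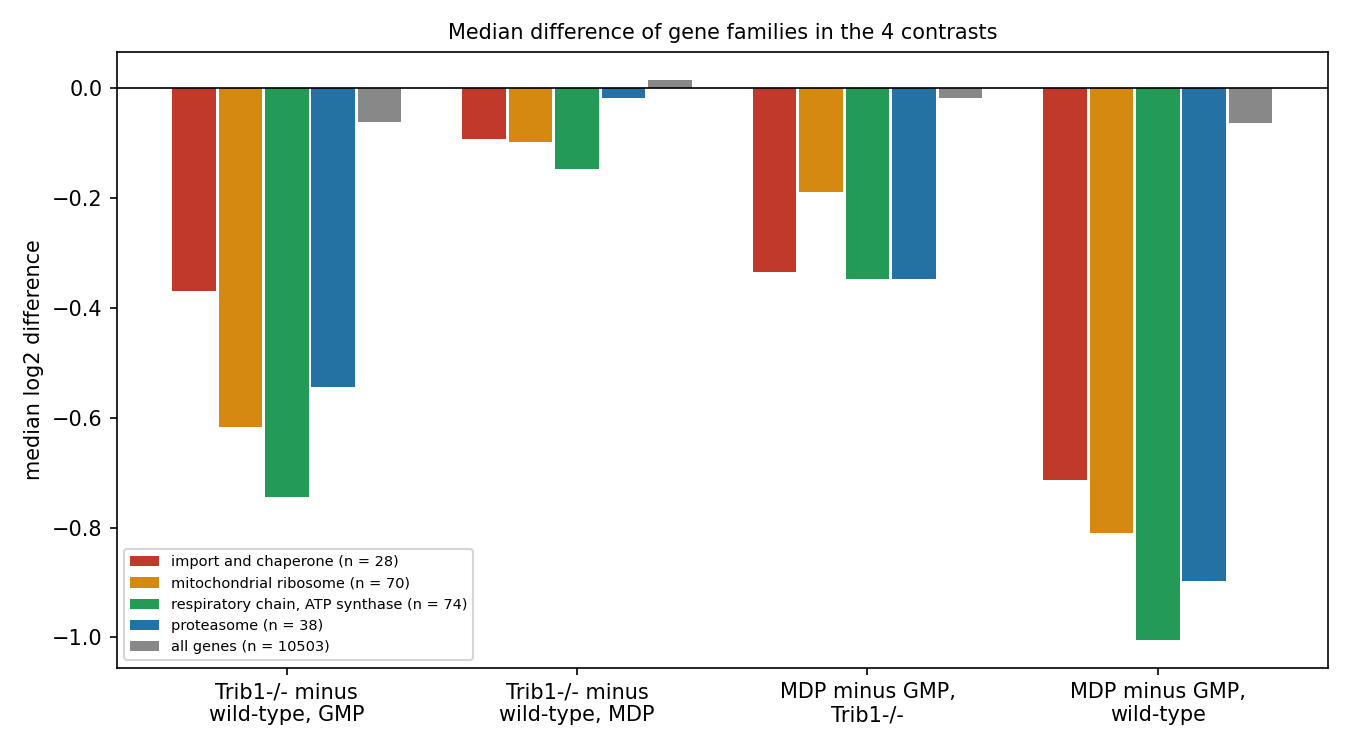
Median log2 difference (bars, from 0) of the import and chaperone genes, 3 other families and all genes above the floor in the 4 contrasts. The import genes have medians of -0.37 and -0.09 between genotypes in GMP and MDP, and -0.34 in Trib1-/- and -0.71 in wild type between MDP and GMP, and in knockout against wild-type GMP the other 3 families lie lower still.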

How the data were processed

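Sorted cells gave total RNA by Trizol extraction, from which the NuGEN Ovation system made biotinylated cRNA, per the labels' protocols. The deposited values are RMA values, per the submitters' processing notes, and are taken as log2 from their range, 0.141 to 14.5, since the table does not state a scale. Of 45101 probe sets, 64 controls were left out, 34945 had 1 symbol in the platform annotation, 932 had several and 9160 were not listed. For each gene the brightest probe set, by its mean on the 4 arrays, was used. The sources used here do not name the genome build behind the probe sets. Differences between arrays were computed in Python 3.11.15 with pandas 2.3.3, and cyclic loess with limma 3.58.1 (3 iterations). The genes named with values on all arrays were those with the widest differences in each contrast and at least 2 of each role group. The arithmetic was tested on simulated data. The genes, lists and alternatives were chosen with earlier results of these data known.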

Additional observations from a re-analysis of the deposited data

How the results depend on the processing

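No paired analysis was possible because each group has 1 array. In turn, the floor was dropped, moved to the 75th percentile or applied to the highest array, or low values were set to it. Probe sets were averaged, or those with the suffix s, x or a were omitted. With cyclic loess, centring each array on its median above the floor, and 32 added to the linear value, 9 alternatives were tried. Under them the median of the import genes ran from -0.38 to -0.23 for the GMP genotypes, -0.11 to -0.03 for the MDP genotypes, -0.42 to -0.17 for MDP against GMP in the knockout and -0.75 to -0.45 in wild type. The count of genes at least 2-fold lower in knockout GMP, 2, ran from 0 to 3 under these alternatives. It was 3 of 32 with no floor (2.22% of all genes) and 3 of 29 with the floor on the highest array (3.16%). With the floor at the 75th percentile it was 1 of 20 (2.51%), with 32 added 0 (0.143%) and at 1.5-fold 8 (13.1%). For MDP against GMP in the knockout the count of 2 lower genes ran from 0 to 3, with 0 when 32 was added (0.619% of all genes). At 1.5-fold it was 6 (12.5%). In wild type the count of 10 ran from 4 to 11, with 4 when 32 was added (3.02%) and 7 of 25 with probe sets averaged (10.2%). At 1.5-fold the wild-type count was 19 (25.6%). Adding 32 shrinks differences of weak genes by construction. Centring moved the median of all genes by 0.11 for the GMP genotypes and 0.14 for MDP against GMP in wild type. The import median then stood at -0.26 against 0.05 for all genes and at -0.58 against 0.07. Below 0 were then 20 of 28 (45.5% of all genes) and 23 of 28 (45.8% of all genes). Of all genes called at 2-fold, 73.6% were then lower in knockout GMP in place of 89.2%, and 60.8% in wild-type MDP in place of 77.2%. No named gene at least 2-fold apart changed sign under an alternative in which it was measured. With Grpel2's probe sets averaged, its GMP genotype difference was -0.22, and with Timm9's averaged it was -0.50. Omitting probe sets with the suffix s, x or a gave -0.43 for Tomm22 in GMP and 0.16 for Samm50 in MDP. Between MDP and GMP in the knockout it gave -0.44 for Samm50 and 0.003 for Hspe1. Weak signals limit Timm10, Tomm40l and Timm13 most.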
